A study of Mus musculus with 3 samples.

Results

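The peaks described here are those of an H3K36me3 ChIP-seq list that lie in the open space between genes. A peak was taken when it overlapped no annotated gene of any biotype by 1 bp and its edge was more than 50 kb from the edge of the nearest protein-coding gene, in the RefSeq annotation of the mouse build GRCm38. Of the 1806 H3K36me3 peaks, 297 met this rule (16.4%, 95% exact binomial interval 14.8 to 18.2). A further 334 peaks lay outside genes but within 50 kb of a protein-coding gene, 141 touched only a non-coding gene or pseudogene, and 1034 touched a protein-coding gene. The study profiled intestinal cells of 6-week-old C57BL/6 mice of the genotype setd2f/f, a pair of floxed alleles of Setd2. It comprised 3 libraries, 1 each for the H3K36me3 antibody, for an antibody to SETD2 and for input DNA without antibody. All 3 carried the floxed alleles, neither a Cre driver nor the number of animals is named, and SETD2-deficient cells were not analysed here. With 1 library per antibody no difference between conditions or animals could be tested. The intervals given below cover counting error alone and treat peaks as independent.

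Trimethylation of lysine 36 on histone H3 is placed by SETD2, which travels with elongating RNA polymerase II, so the mark is known mainly from the bodies of transcribed genes. It is read by proteins that act in splicing, DNA repair and DNA methylation. Space between genes is normally poor in this mark and carries dimethylated lysine 36 instead, placed by enzymes of the NSD family. In intergenic DNA, H3K36me3 can accompany transcripts that an annotation does not hold.

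The label of these peaks held only for protein-coding genes. The median distance to the nearest protein-coding gene was 202 kb (interquartile range 97.7 to 430 kb), and the rule fixed its lower end. The distance to the nearest annotated gene of any biotype, for which the rule set no minimum beyond 1 bp, had a median of 38.3 kb (15.2 to 87.3 kb). Within 10 kb of some annotated gene lay 58 of the 297 peaks (19.5%), and within 50 kb lay 171 (57.6%). The peaks were thus distant from protein-coding genes, while most had a non-coding gene or pseudogene closer by.

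As a check of the tissue, 3 of 54 marker genes of intestinal and other cell types held an H3K36me3 peak, against 4.51% of all protein-coding genes. These were Sis, the brush border sucrase-isomaltase, and the crypt genes Mki67 and Cd44. Markers such as Vil1, Fabp1, Lgr5, Muc2 and Lyz1 held none, as did the 7 immune and 8 stromal, muscle and endothelial markers, so the peaks identify no cell type.

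Sequences of the peaks themselves were not analysed here. No RefSeq promoter window (300 bases, from 250 before to 50 after a gene start) overlapped a far intergenic peak. Those of 3 long non-coding RNA genes ended within 1 kb of one and are shown because, among the 32851 windows of the RefSeq table, which does not cover all genes, they were the nearest to these peaks. They are printed from RefSeq (GRCm38.p6), 5′ to 3′ on the strand of the gene, with CG dinucleotides in capitals.
1700029N11Rik, chr13:44439477-44439776, plus strand: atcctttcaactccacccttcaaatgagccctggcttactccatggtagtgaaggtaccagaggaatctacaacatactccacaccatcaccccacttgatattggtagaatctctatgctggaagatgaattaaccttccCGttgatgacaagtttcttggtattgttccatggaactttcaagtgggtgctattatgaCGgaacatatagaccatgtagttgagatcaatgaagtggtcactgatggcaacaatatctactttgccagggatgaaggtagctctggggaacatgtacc
Gm31494, chr16:49644603-49644902, minus strand: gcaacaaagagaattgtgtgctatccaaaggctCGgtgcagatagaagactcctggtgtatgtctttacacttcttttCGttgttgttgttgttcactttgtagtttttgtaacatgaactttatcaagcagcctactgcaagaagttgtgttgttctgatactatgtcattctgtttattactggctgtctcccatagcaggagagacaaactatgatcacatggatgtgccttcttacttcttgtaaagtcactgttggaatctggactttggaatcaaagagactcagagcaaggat
Gm40932, chr13:45106701-45107000, plus strand: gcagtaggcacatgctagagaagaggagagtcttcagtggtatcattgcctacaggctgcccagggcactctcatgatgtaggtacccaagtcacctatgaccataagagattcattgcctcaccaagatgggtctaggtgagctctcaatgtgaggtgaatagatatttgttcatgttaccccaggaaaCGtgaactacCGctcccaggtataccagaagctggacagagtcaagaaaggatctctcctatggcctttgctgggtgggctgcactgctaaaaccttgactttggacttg

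The score given with each peak is the authors' own value, of unstated scale and never under 30 in this list. At the peak widths examined below it took only a few fixed values, so it serves here to order peaks and is not read as an amount of H3K36me3. The window of 1700029N11Rik lay 129 bp from the peak at chr13:44438560-44439348 (score 30.3). That of Gm31494 lay 532 bp from the peak at chr16:49645434-49645950 (score 32.6), and that of Gm40932 lay 650 bp from the peak at chr13:45105391-45106051 (score 31.6). In each case the peak was on the upstream side of the gene. The 3 windows were poor in CG: each held 2 CG dinucleotides, against a median of 7 over all windows, of which 23.3% held 2 or fewer. Their GC content was 43.7%, 40% and 49% in the order printed, against a median of 52.7%. None contained TATAAA on either strand, which 13.6% of all windows did.

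H3K36me3 peaks were less dense far from genes than in or near them. The positions open to the rule, outside all genes and more than 50 kb from a protein-coding gene, amounted to 858 Mb, 32.2% of the 2661 Mb between the outermost genes or peaks of the chromosomes. They held 0.346 peaks per Mb (95% Poisson interval 0.308 to 0.388). Intergenic positions within 50 kb of a protein-coding gene held 0.597 peaks per Mb (0.535 to 0.665), 1.73 times the far intergenic value. Positions in other genes held 0.663 per Mb (0.558 to 0.781), and those in protein-coding genes 1.003 per Mb (0.943 to 1.07), 2.90 times the far intergenic value. The interval of the far intergenic density lay below those of all 3 other classes, and no further test was made. Chromosome Y, with much open sequence and few peaks, lowered the value. On the autosomes the far intergenic density was 0.385 (0.341 to 0.433), against 0.647 (0.578 to 0.722) near genes and 1.03 (0.968 to 1.10) in protein-coding genes.

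The density declined over the first 100 kb from a gene and then changed little. Outside genes it was 0.666 peaks per Mb within 10 kb of a protein-coding gene (0.564 to 0.781) and 0.551 from 10 to 50 kb (0.474 to 0.637). Beyond the limit of the rule it was 0.426 from 50 to 100 kb (0.337 to 0.531), and 0.332 from 100 to 200 kb (0.258 to 0.420). The 149 peaks more than 200 kb away fell into 3 distance ranges with values of 0.331, 0.313 and 0.294 per Mb. The intervals of all 5 ranges beyond 50 kb overlapped. The last range, more than 1000 kb from any protein-coding gene, still held 18 peaks in 61.2 Mb (0.174 to 0.464 per Mb).

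**Figure D1:**
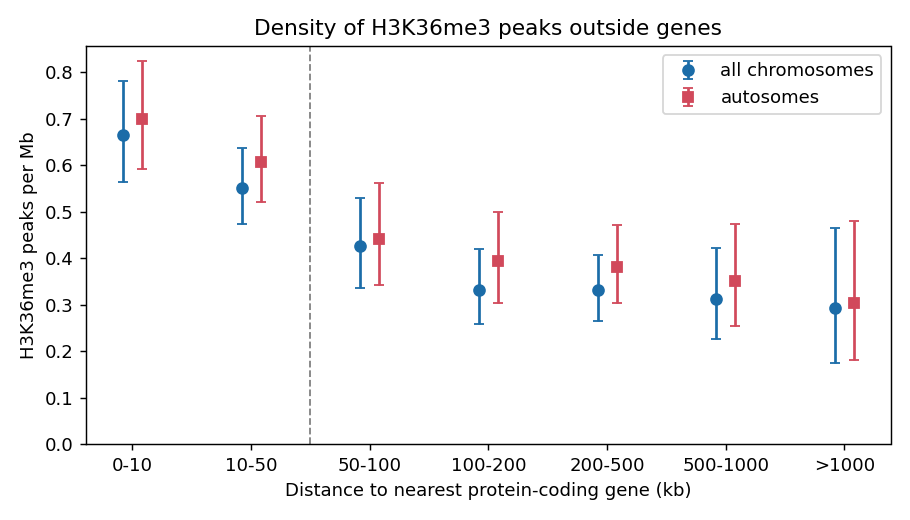
Number of H3K36me3 peaks outside genes per Mb of intergenic sequence (vertical axis) in 7 ranges of distance to the nearest protein-coding gene (horizontal axis, kb); points are densities, bars 95% Poisson intervals, circles all chromosomes and squares autosomes, and the dashed line marks the 50 kb limit. On all chromosomes the density ran from 0.666 per Mb next to genes to 0.294 per Mb beyond 1000 kb, with overlapping intervals past the limit.

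Inside the far intergenic space the density also fell, unevenly, with distance from annotated genes of any biotype. Within 5 kb of an annotated gene of any biotype lay 34 peaks (11.4%, 8.06 to 15.6), against 7.31% of far intergenic positions. Their density there was 0.542 per Mb (0.375 to 0.758), against 0.273 per Mb (0.210 to 0.350) more than 100 kb from every annotated gene. In between it was 0.382 from 5 to 20 kb (0.289 to 0.495), 0.411 from 20 to 50 kb and 0.286 from 50 to 100 kb. The interval from 5 to 20 kb overlapped those of both end ranges. The nearest annotated gene was a pseudogene for 132 peaks (44.4%, 38.7 to 50.3, against 41.2% of positions) and a long non-coding RNA gene for 103 (34.7%, 29.3 to 40.4, against 33.5%). A small nucleolar RNA gene was nearest for 22 peaks (7.41%, 4.70 to 11.0, against 5.06%). The intervals of these 3 kinds included the share of positions. A protein-coding gene was itself the nearest gene for 18 peaks (6.06%, 3.63 to 9.41), fewer than the 12.9% of positions, and on the autosomes for 4.32% against 8.41%. It was the one kind of neighbour whose interval did not include the share of positions. Under the rule such peaks lie more than 50 kb from every annotated gene, where the density was 0.286 and 0.273 per Mb. This lower share is therefore not separate from the fall with distance. The closest contact was 0.101 kb, between the peak at chr1:183564146-183564757 (score 31.3) and the long non-coding RNA gene Gm33973. Others lay 0.159 kb from the small nucleolar RNA gene Gm24235 (chr5:54827502-54827967, score 31.0) and 0.371 kb from the long non-coding RNA gene Gm30397 (chr8:44746588-44747108, score 32.3). These 3 peaks scored below the median of the list, 33.6, but others within 5 kb of a non-coding gene or pseudogene scored above it. Examples were the peaks near Dll1 (4.54 kb from Gm7423, score 49.4) and Zfp608 (2.53 kb from Gm22597, score 42.6).

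Far intergenic peaks had a slightly lower median width than the other classes and ranked like them. Their median width was 577 bp (95% interval of the median 550 to 592, interquartile range 501 to 654 bp). Peaks within 50 kb of genes had a median of 602 bp (590 to 614) and peaks in other genes one of 602 bp (572 to 622). Both intervals overlapped that of the far intergenic peaks. Peaks in protein-coding genes had a median of 608 bp (600 to 616), an interval that did not overlap it. This difference of 31 bp from peaks in protein-coding genes was small beside the spread of either class, and it was not tested. Only 3 far intergenic peaks were wider than 1 kb (1.01%), against 22 in protein-coding genes (2.13%). Far intergenic scores ran from 30 to 59.4 with a median of 33.5, where peaks in protein-coding genes ran from 30 to 82.0 with a median of 33.7. Most scores of both classes lay close to the lowest score of the list, 30. The interquartile range was 31.6 to 36.2 for far intergenic peaks and 31.6 to 37.0 for peaks in protein-coding genes. The median rank was 918 of 1806 (95% interval 835 to 1007). Scores at or above the median of the list were held by 142 of the 297 (47.8%, 42.0 to 53.7), and the top 10% of the list held 27 (9.09%, 6.08 to 13.0). Score did not follow distance from genes among the 297 peaks (Spearman rho -0.04, a description over peaks of 1 library).

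Score and width followed a repeated pattern in most of the peaks, though over all 297 they showed no rank correlation (Spearman rho 0.004). Of the 297 peaks, 198 (66.7%, 61.0 to 72.0) had exactly the same width and the same score as at least 1 other H3K36me3 peak, against 66.9% (64.5 to 69.3) of the other peaks. At the widths examined the scores took a few steps. All 5 peaks of 455 bp scored 31.78, 37.48 or 43.51, the last being a far intergenic peak 56.2 kb from Mphosph6 (chr8:117858207-117858661). All 10 peaks of 578 bp scored 33.54, 38.86 or 44.48, the last being the peak nearest to Agtr1b (chr3:21028244-21028821). Between such steps at neighbouring widths the score could fall as the width grew. For example, far intergenic peaks of 577, 579 and 580 bp scored 33.6, 33.47 and 33.4. Ranks of such peaks therefore followed their width. Steps were not traced over the whole list.

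Narrow peaks shared scores across widths and often scored high. Of the 297, 13 were under 400 bp (4.38%, 2.35 to 7.37), against 4 of 334 near genes (1.20%, 0.327 to 3.04) and 25 of 1034 in protein-coding genes (2.42%, 1.57 to 3.55). Peaks in other genes had nearly the same share, 6 of 141 (4.26%, 1.58 to 9.03). The top 10% of the list held 8 of these 13 and 19 of the 284 wider ones (6.69%). The same held for the other H3K36me3 peaks under 400 bp, with 22 of 35 in the top 10%. A score of 56.08 was shared by 7 peaks of 295 to 387 bp, 3 of them far intergenic, and a score of 42.62 by 15 peaks of 351 to 400 bp, again with 3. Narrow width thus went with high rank both far from genes and elsewhere.

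**Figure D2:**
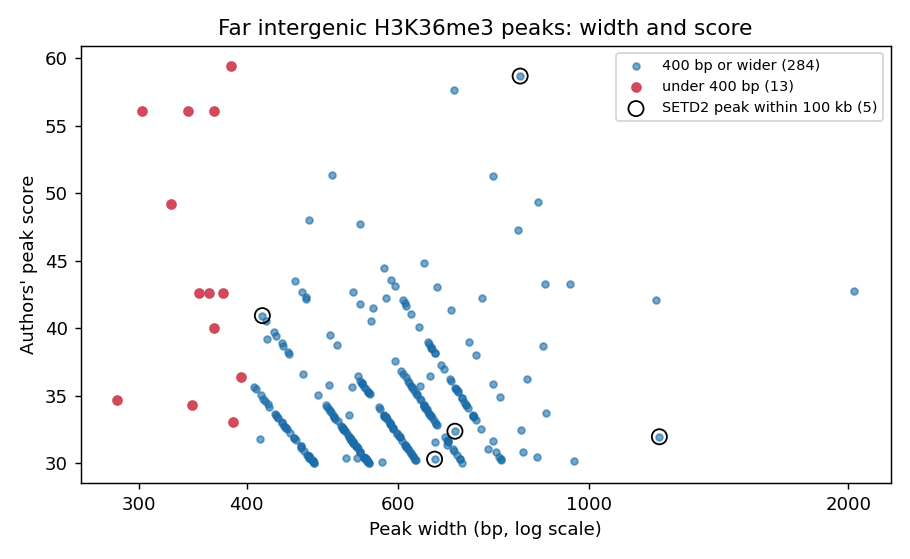
Width in bp (horizontal axis, log scale) and the authors' score (vertical axis) of each of the 297 far intergenic H3K36me3 peaks; large dots are the 13 peaks under 400 bp and open rings the 5 peaks with a SETD2 peak within 100 kb. Most peaks lie on a few slanting lines, and 8 of the 13 narrow peaks are in the top 10% of the list.

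The nearest genes of the highest-scoring peaks were of several kinds, given here as a description. One of the highest, at chr18:14102864-14103694 (score 58.7, rank 13 in the list), was 130 kb from Zfp521, which encodes a zinc finger transcription factor. Another, at chr5:59004879-59005574 (score 57.6), lay 872 kb downstream of Pcdh7, a protocadherin gene. Then came 3 of the narrow peaks that scored 56.08. They lay 220 kb downstream of Ryr2, the cardiac calcium release channel (chr13:11333219-11333584), 81.5 kb downstream of the lipid phosphatase gene Lpin1 (chr12:16453887-16454188), and 1500.0 kb downstream of Cdh8, a neural cadherin (chr8:97524115-97524456). Peaks near Fscb (chr12:64023324-64023826, score 51.3) and the water channel gene Aqp4 (chr18:15287926-15288698, score 51.3) followed with scores above 50. The next were 50.5 kb from the Notch ligand gene Dll1 (chr17:15316018-15316888, score 49.4), 113 kb from Parp11 (score 49.2), 426 kb from Marcks (score 48.0) and 303 kb from the lipid flippase gene Atp10a (score 47.7). Of these genes, Pcdh7 also held an H3K36me3 peak in its own span.

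The most remote peaks lay in large deserts of protein-coding genes. The farthest, at chr14:82197021-82197465 (score 32.6), was 2.17 Mb from its nearest protein-coding gene, which was Olfm4, a marker of intestinal crypt stem cells. Next were peaks 2.09 Mb from Cntnap5b (chr1:102580665-102581299, score 35.7) and 1.87 Mb from Cntnap5a (chr1:113812908-113813440, score 31.5), genes of the contactin-associated protein family. Further peaks were 1.68 Mb from the neural catenin gene Ctnna2 (chr6:75205443-75206137, score 31.0), 1503 kb from the RNA-binding protein gene Celf4 (chr18:27257182-27257725, score 35.98) and, as above, the one beyond Cdh8. Annotated genes of other biotypes were closer to these 6 peaks. The nearest ones lay from 2.60 kb (the Ctnna2 peak, pseudogene Gm8993) to 208 kb (the Celf4 peak, pseudogene Gm7874) away. The peaks near Celf4 and Cntnap5b ranked 567 and 594 of 1806, and those near Olfm4, Cntnap5a and Ctnna2 were below the median score. The widest peak, of 2028 bp, lay 125 kb from Tcte2 (chr17:13589599-13591626, score 42.8). It was followed by peaks of 1206 bp near the olfactory receptor gene Olfr161 (chr16:3325071-3326276, score 32.0) and of 1195 bp near the predicted gene Gm52720 (chr4:3262665-3263859, score 42.1). Then came peaks of 960 bp near Hnf4g (score 30.2) and 950 bp near Btbd35f25 (score 43.3).

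The 3 peaks nearest to the 50 kb limit on either side are given as a description, with no test. Beyond it, and so far intergenic, were the Dll1 peak at 50.5 kb (score 49.4, 871 bp), a peak at 50.6 kb from Slc45a1 (score 31.2, 537 bp) and one at 51.9 kb from Tmem161b (score 41.7, 613 bp). Within it, and so left out, were peaks at 49.7 kb from Usp38 (score 35.5, 551 bp), at 49.1 kb from Obox2 (score 31.3, 437 bp) and at 48.6 kb from Tpd52 (score 34.8, 635 bp).

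By chromosome the peaks mostly followed the open sequence, and which chromosomes stood apart besides Y depended on the density taken as the base. Counts ran from 2 on chromosome Y to 24 on chromosomes 1 and 3. Across the 21 chromosomes they were higher where more length was open to the rule (Pearson r 0.45, Spearman rho 0.56, a description over chromosomes of 1 library). Chromosome 13 held 22 peaks (95% Poisson interval 13.8 to 33.3) against 13.1 for its share of open sequence, a density of 0.580 per Mb (0.364 to 0.878). Chromosome Y held 2 against 22.3, or 0.0311 per Mb (0.00376 to 0.112). Chromosome X held 17 (9.90 to 27.2) against 24.7, or 0.238 per Mb (0.139 to 0.382). These expected numbers rest on the density over all chromosomes, which chromosome Y lowers. At the autosomal density, a base chosen after seeing the data, chromosome 13 would hold 14.6 peaks, which its interval includes. Chromosome X would then hold 27.4, just above its interval, and chromosome Y 24.8. Only X and Y lay outside on that base, and only 13 and Y on the other. Among 21 intervals at 95%, counting error alone can put a chromosome outside, and 13 and X each missed narrowly. Assembly gaps and unmappable repeats, known to be common on chromosome Y, could not be taken out of the open sequence, and their part in these counts was not tested. The 2 peaks of chromosome Y, at chr Y 90819535 to 90819956 and 90824965 to 90825851, were 5.01 kb apart (scores 39.2 and 43.3).

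**Figure D3:**
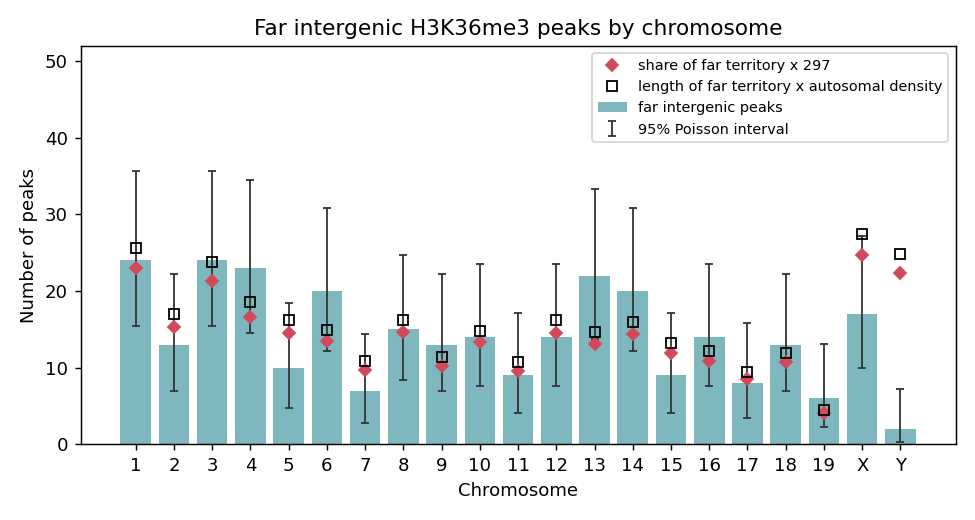
Number of far intergenic H3K36me3 peaks (vertical axis) on each mouse chromosome (horizontal axis); bars are counts, black lines 95% Poisson intervals, diamonds the number that each chromosome's share of far intergenic sequence gives, and open squares the number at the autosomal density. Chromosomes 13 (22 peaks against 13.1) and Y (2 against 22.3) have a diamond outside the interval, and chromosomes X (17 against 27.4) and Y a square outside it.

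Adhesion and developmental genes bordered these peaks as often as they bordered the open space as a whole. The 297 peaks had 265 different nearest protein-coding genes. Of 96 cell adhesion, axon guidance and synapse genes, a class known for flanking gene deserts, 26 were nearest to a peak. They accounted for 33 peaks (11.1%, 7.77 to 15.2), against 11.1% of far intergenic positions, or 33.0 peaks. Besides Pcdh7 and Cdh8 they included Pcdh11x (score 42.1), Cdh2 (score 41.5) and Cntnap2 (score 40.5). Of 85 developmental transcription factor genes, 10 were nearest to 11 peaks (3.70%, 1.86 to 6.53), against 10.7 by position. Examples were Zfp521, the homeobox gene Barhl2 (chr5:106187350-106187943, score 43.2) and Zfp608 (score 42.6). Neither list departed from its share of positions.

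Few of these peaks had a listed gene of the intestine or of the mark itself as nearest gene, and few were due by position. Of the 12 enterocyte genes 1 was nearest to a peak, Sis, 474 kb away (chr3:72413977-72414391, score 35.0), against 0.483 by position. Of the 8 crypt genes 1 was, Olfm4, against 1.12. The 6 goblet cell, 5 Paneth cell, 8 enteroendocrine and tuft cell, 7 immune and 8 stromal, muscle and endothelial genes were nearest to 0 peaks, and so were 28 writers, erasers and readers of H3K36 methylation. By position at most 0.288 peaks were due in any of these lists, so a lack could not be detected at this number of peaks. Outside the marker lists, Hnf4g, a nuclear receptor of the intestinal epithelium, was nearest to 3 peaks, against 0.392 by position. They were 383, 456 and 530 kb away (scores 30.2, 30.2 and 30.8). Of these, 2 lay in the first 1000 kb of annotated sequence on chromosome 3. Klf5, a transcription factor gene of proliferating crypt cells, was 75.6 kb from a peak with a score of 33.6. Its neighbour Klf12 was nearest to 2 peaks (scores 33.6 and 33.2).

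Repeated gene families added little. Olfactory receptor genes were nearest to 2 peaks, both beside Olfr161 (0.543 by position), vomeronasal receptor genes to 0 (1.07 by position) and genes named Zfp to 5 (2.80). A count of 0 among 297 peaks allows a share of up to 1.01% when the limit is set at 3 counts, and the exact binomial interval reaches 1.23%. Predicted genes were nearest to 13 peaks against 37.8 by position, a gap that shrank to 9 against 12.7 on the autosomes. The nearest gene carried an H3K36me3 peak in its own span for 30 of the 297 peaks (10.1%, 6.92 to 14.1), against 8.45% of far intergenic positions. It carried a SETD2 peak for 0, against 0.866 by position. Of the 230 peaks whose nearest gene has a known strand, 47.8% (41.2 to 54.5) lay downstream of it, against 48.0% of positions. A preference for the 3′ side of genes, where transcription can run on past the annotated end, was not detectable at this number of peaks.

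A few peaks stood close together. Another far intergenic peak lay within 100 kb of 25 of the 297 (8.42%, 5.52 to 12.2), in 11 pairs and 1 run of 3. With gaps under 1 kb merged, a choice made after seeing the data, it was 7.12% (4.46 to 10.7) of 295 peaks. No share by position was computed for this closeness, so these counts do not show whether the peaks cluster. The run spanned 94.6 kb at chr4:27244426-27338980, with scores of 33.4, 30.2 and 34.2. It lay in a desert 898 to 992 kb upstream of Manea, a Golgi mannosidase gene. With another peak 735 kb away (score 33.0), Manea was nearest to 4 peaks, more than any other gene, against 0.449 by position. Manea itself held no H3K36me3 peak. Cntnap5a was nearest to 3, at 1.87, 1.23 and 1.13 Mb, against 0.830 by position. Both genes were named because of their counts, so these comparisons with position are not a test. The tightest pairs were 54 bp apart beside Btbd35f25 (scores 31.6 and 43.3) and 129 bp apart beside Olfr161 (scores 30.3 and 32.0). An H3K36me3 peak of any class lay within 10 kb of 9 far intergenic peaks (3.03%, 1.39 to 5.67), against 3.31% (2.47 to 4.35) of the other H3K36me3 peaks. Within 100 kb it was 33 (11.1%, 7.77 to 15.2) against 21.2% (19.2 to 23.4). The rule keeps protein-coding genes, which hold most H3K36me3 peaks, more than 50 kb away, so a lower share is built in.

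Some of the peaks lay in sequence rich in copies or at chromosome starts. Within 500 kb of 16 peaks (5.39%, 3.11 to 8.60) lay 10 or more pseudogenes, which was true of 2.60% of far intergenic positions. The share was higher in other classes, with 13.8% (10.3 to 17.9) of H3K36me3 peaks near genes and 7.54% (6.01 to 9.33) of those in protein-coding genes. Examples were the peaks beside Zscan4d (38 pseudogenes, score 34.5), Fbxw17 (22, score 31.3) and Btbd35f17 (18, score 34.7). The 16 peaks include neighbours, which the interval treats as independent. These lay beside Mdm1 (14 pseudogenes each, 83.0 kb apart), Gm41099 (13 and 14, 284 kb apart) and Olfr161 (10 each, 0.129 kb apart). A count with such neighbours taken once was not made. The first 1000 kb of annotated sequence on a chromosome, a measure chosen after the peaks were seen, held 8 peaks (2.69%, 1.17 to 5.24), against 0.674% of positions. They included both peaks beside Olfr161, 2 of the 3 nearest to Hnf4g, and those near Gm52720 and Cdk6. Both shares of positions lay below the intervals, with neighbouring peaks counted separately. Reads may not be assignable to 1 copy in such sequence, and its part in these counts was not tested.

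SETD2 peaks were near few of the far intergenic H3K36me3 peaks. The median distance to a SETD2 peak was 4.69 Mb. Within 100 kb of a SETD2 peak lay 5 of the 297 (1.68%, 0.549 to 3.88), against 1.39% of far intergenic positions and 2.71% of all H3K36me3 peaks. Within 500 kb lay 24 (8.08%, 5.25 to 11.8), against 5.64% of positions and 7.97% of all H3K36me3 peaks. Within 1000 kb lay 41 (13.8%, 10.1 to 18.3), against 11.0% and 14.1%. At these distances the share of positions was inside the interval. Of the 186 SETD2 peaks, 60 (32.3%, 25.6 to 39.5) met the same far intergenic rule, where 32.2% of positions and 16.4% of H3K36me3 peaks did, and 4 of these 60 had a far intergenic H3K36me3 peak within 100 kb.

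At the shortest distances the few cases were 2 places. A SETD2 peak overlapped 2 of the 297 peaks by at least 1 bp (0.673%, 0.0817 to 2.41), against 0.0107% of positions, or 0.0318 peaks, and 0.388% of all H3K36me3 peaks. Within 10 kb it was 3 (1.01%, 0.209 to 2.92), against 0.151% of positions and 0.664% of all H3K36me3 peaks, and within 50 kb it was the same 3, against 0.709% of positions and 1.44% of all H3K36me3 peaks. Counted with gaps under 1 kb merged, a choice made after seeing the data, 2 of 295 peaks overlapped a SETD2 peak or had one within 10 kb (0.678%, 0.0822 to 2.43), and at 10 kb the 0.151% of positions was then inside the interval. One place was the peak near Zfp521, one of the highest of the 297, whose SETD2 peak at chr18:14102870-14103737 scored 30.2. The other was the pair beside Olfr161, where a SETD2 peak at chr16:3325196-3326364 (score 35.1) overlapped the wider peak and lay 254 bp from the narrower. That pair lies at the start of chromosome 16, with 10 pseudogenes within 500 kb. Without the first 1000 kb of each chromosome 1 overlap was left (0.346%, 0.00876 to 1.91), against 0.0103% of positions. The 2 lists share 1 input library as control, and its part in the overlaps was not tested.

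The next nearest SETD2 peaks did not touch their H3K36me3 neighbours. One lay 58.7 kb from the peak near Tusc1 (chr4:93903567-93903983, score 40.9). Another lay 85.8 kb from the peak near Asmt, the last enzyme of melatonin synthesis (chrX:170844452-170845149, score 32.4), and its own score of 1067 was among the highest of the SETD2 list. Of the 8 far intergenic SETD2 peaks that scored over 100, it was the 1 with a far intergenic H3K36me3 peak within 100 kb, too few to compare with the 4 of all 60.

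**Figure D4:**
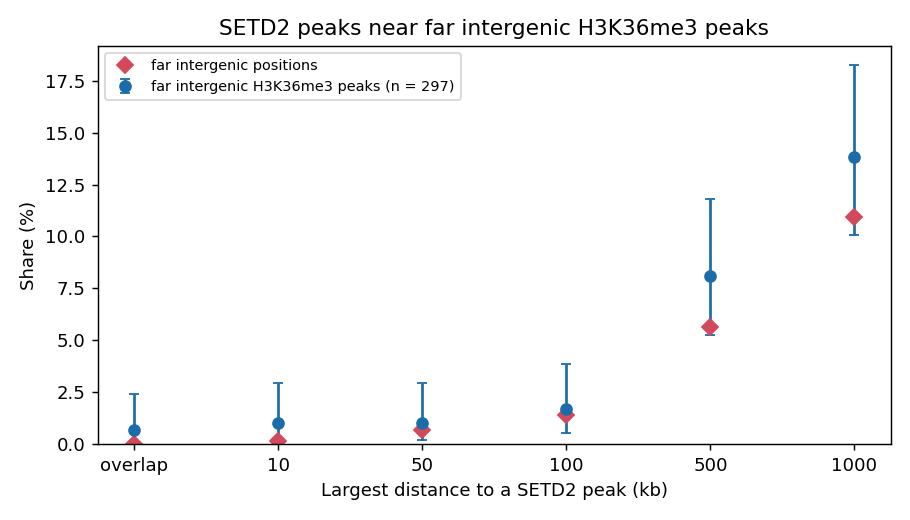
Share in percent (vertical axis) of the 297 far intergenic H3K36me3 peaks (circles, with 95% exact binomial intervals) and of far intergenic positions (diamonds) that have a SETD2 peak at or within each distance (horizontal axis, kb). At 100 kb the shares were 1.68% and 1.39%, and the overlap and the 10 kb range have a diamond below the interval, the latter only while the pair beside Olfr161 counts as 2 peaks.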

How the data were processed

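ChIP-seq peak lists of 1 H3K36me3 and 1 SETD2 library, each against 1 input library, were used as deposited. Per the file headers, which are only the names of files and peaks, peaks were called by a program that names them MACS. CASAVA 1.8 and, although the samples are mouse, hg19 appear in the submitters' processing notes. The names of the peak lists also carry numbers that the sources do not explain. Which aligner, caller version and filters were used was not otherwise given in the sources used. Each peak has a score from the authors, deposited without a scale. Read numbers are not listed, and the depth is therefore unknown.

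Coordinates were read as GRCm38 and are counted from 1. The share of H3K36me3 peaks touching a protein-coding gene of that build was 57.3%, and 53.5% and 52.7% after moving them by 10 kb either way. After a move of 1000 kb it was 43.2% and 42.5%. Genes came from a RefSeq GRCm38.p6 table of 49997 genes. The 340 genes that start before 3 Mb (chromosome Y excepted), which carry positions on patch scaffolds, were left out with those outside the chromosomes. This left 49603, of which 21779 are protein-coding.

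Distances run from edge to edge. In place of random draws, the share of positions was computed over every base that the rule allows, with 288 bp (the median peak width divided by 2) added around SETD2 peaks. Positions were assigned to the nearest gene by the middle of each gap. Shares have exact Clopper-Pearson intervals, densities exact Poisson intervals and medians binomial ones, all at 95%. Strands came from the RefSeq promoter table. Distances, classes and positions were tested on simulated data, with Python 3.11.15 and scipy 1.17.1. The 266 listed genes were all matched by symbol or synonym. The peaks and gene lists were chosen with earlier results of these data known. Peaks were named by rule: the 12 highest scores, the 6 most remote, the 5 widest, those within 50 kb of a SETD2 peak, runs of 3 or more, 3 on either side of the 50 kb limit, genes nearest to 3 or more peaks, and up to 4 per gene list. Items that the rule names and that are withheld are not reported here. Others named (the closest to non-coding genes, Klf5, the pairs, pseudogene-rich and chromosome-start peaks, and those near Tusc1 and Asmt) were chosen after their values were seen. Sequence content of the peaks was planned and not analysed here.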

Additional observations from a re-analysis of the deposited data

How the results depend on the processing

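Of 45 recomputed values, 32 moved by less than their intervals, stayed within 1.5 times the reported count or kept their side of the interval. That count takes no account of the share of positions. It includes SETD2 overlap (0.673% against 0.0107% of positions) and the 10 kb range (1.01% against 0.151%). There the share of positions lay below the interval, whereas at 100 kb it lay inside. At the autosomal density chromosome 13 no longer stood apart, with 1.51 times the expected count in place of 1.68, and chromosome X did, with 0.620 in place of 0.689. The number of far intergenic peaks fell to 126 when the 50 kb distance was asked of genes of every biotype, and to 142 among peaks with scores at or above the median, which leaves about the upper part of the list by construction. The latter had a median width of 606 bp. Other distances gave other shares by construction: a SETD2 peak within 500 kb for 8.08% and within 1000 kb for 13.8%, another far intergenic peak within 10 kb for 2.69% and within 1000 kb for 29.3%, and 5 or more pseudogenes within 500 kb for 25.6% (19.7% of positions). Alternatives chosen after seeing the data gave SETD2 overlap for 0.346% without the first 1000 kb of chromosomes, and on autosomes a SETD2 peak within 500 kb for 7.55% and within 1000 kb for 13.3%. Removing assembly gaps was planned and not run, as no genome was used. No paired analysis was possible because each group has 1 library. The lack of replicates and of read numbers limits every value.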
